A study of Drosophila melanogaster with 12 samples.

Results

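The hybrid SU26xZI418N was compared with its parental lines in the Malpighian tubules of female Drosophila melanogaster. The comparison holds 6 of the 12 libraries of the series, chosen by their titles alone: 2 of the F1 hybrid, 2 of the Swedish line SU26 crossed to itself and 2 of the Zambian line ZI418N crossed to itself. The strain labels write these genotypes as S26, Z418 and S26 x Z418 hybrid, and the labels used here do not say which line was the mother. All flies were females of 6 days, reared at 20 °C on cornmeal-molasses food and lit for 14 h a day, and none carried a transgene or received a treatment by the labels. The 6 other libraries, of the line SU58 and of its hybrids with SU26 and ZI418N, entered the fit to help estimate the spread between replicates. They also entered the choice of genes tested and the scaling between libraries. The comparison asks how much of each gene's transcript a hybrid makes when its parental lines make different amounts. Each of the 3 genotypes is a single line or cross, so the values describe these lines and not Sweden or Zambia.

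The Malpighian tubules are the excretory and osmoregulatory organ of insects. Their large principal cells pump protons and cations into the lumen by a V-ATPase and carry most transport and detoxification enzymes, and the smaller stellate cells pass chloride and water. In an F1 hybrid each gene is present as an allele from either parent in the same cells. A hybrid may therefore lie midway between its parents, match a parent, or lie outside both.

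The 6 libraries held 31991613 to 37837870 counted reads, and 10762 to 10913 genes had at least 1 read in each. Of 13919 genes in the count tables, 9302 had enough reads over the 12 libraries to be tested, against 8972 in a fit of the 6 alone. Levels are given in CPM, the read count scaled by library size and by TMM factors, which correct for composition, for replicate 1 and then replicate 2 of each genotype. Spread between replicates over all 12 libraries corresponded to a common biological coefficient of variation of 22.5% and a median per gene of 14.4%. Of the tubule's own defining markers, all 11 principal cell and all 9 stellate cell genes on the lists used were detected in all 6 libraries. The summed level of the principal cell list was 16770.5 and 18611 CPM in SU26, 12351 and 12777 CPM in ZI418N and 11062 and 9463 CPM in the hybrid. Most of this sum came from salt, Alp4 and Uro. The median log2 difference of the hybrid over the 11 genes was -0.04 from SU26 and -0.28 from ZI418N, so the sum does not describe the list as a whole. The stellate cell list summed to 1015 and 949 CPM in SU26, 1574 and 1527 CPM in ZI418N and 1433 and 1103 CPM in the hybrid. In these bulk samples fewer cells of a type and less RNA per cell cannot be told apart.

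The libraries of the hybrid differed from each other more than those of either parent. Their log2 levels correlated at 0.950, against 0.987 for the SU26 libraries and 0.990 for the ZI418N libraries. Of the 9302 genes, 419 were at least 4-fold higher in hybrid replicate 2 and 11 at least 4-fold higher in replicate 1. In the 5 other genotypes 6 to 86 genes stood that far higher in replicate 2 and 19 to 64 that far lower. The 419 genes took 1.26% of all reads in hybrid replicate 2, 0.0490% in hybrid replicate 1, 0.0475% and 0.0556% in SU26, and 0.435% and 0.208% in ZI418N.

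Transcripts of the female germ line made up part of that difference. Of 29 tested genes on a germ line list, 26 were at least 2-fold higher in hybrid replicate 2 than in replicate 1. The summed list came to 874 and 781 CPM in SU26, 872 and 867 CPM in ZI418N and 884 and 2304 CPM in the hybrid. osk, whose mRNA directs formation of the pole plasm in the egg, measured 0.330 and 0.0864 CPM in SU26, 0.341 and 0.499 CPM in ZI418N and 1.75 and 111 CPM in the hybrid. Part of its exons overlaps another gene on the same strand, so its reads may be shared. CycB, a mitotic cyclin, measured 1.78 and 1.12 CPM in SU26, 0.738 and 1.80 CPM in ZI418N and 4.51 and 282 CPM in the hybrid, and yl, the yolk receptor of the oocyte, 0.826 and 0.144 CPM in SU26, 0.397 and 1.14 CPM in ZI418N and 3.92 and 145 CPM in the hybrid. All 3 of these genes stood above every parental library in hybrid replicate 1 too, and far above them in replicate 2. Leaving out replicate 2 therefore does not remove all of this signal. The summed list of replicate 1 was near that of the parents, but the sum moved far less than the median gene. The median log2 ratio of replicate 2 to replicate 1 over the list was 5.15. Without replicate 2, the list median still stood 0.47 above the mean of the parents' log2 levels. The eggshell and follicle cell list did not move in the same way, at 34.3 and 2.68 CPM in SU26, 1.56 and 2.22 CPM in ZI418N and 8.11 and 10.4 CPM in the hybrid. Counts and calls below that change when hybrid replicate 2 is left out are therefore also given without it.

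A further set of transcripts stood high in hybrid replicate 2 and in both ZI418N libraries, but near 0 in SU26 and in hybrid replicate 1. The 8 genes with the largest ratio of replicate 2 to replicate 1 were all of this kind, and none of them is a germ line gene of the list. whe measured 0.165 and 0 CPM in SU26, 561 and 441 CPM in ZI418N and 0.0806 and 1029 CPM in the hybrid. CG16826 measured 0.364 and 0.0576 CPM in SU26, 2183 and 751 CPM in ZI418N and 0.269 and 2446 CPM in the hybrid, and lcs 0 and 0.0288 CPM in SU26, 193 and 103 CPM in ZI418N and 0.0806 and 303 CPM in the hybrid. LysP, a lysozyme expressed in the salivary gland, measured 0.0330 and 0.0288 CPM in SU26, 130.5 and 17.2 CPM in ZI418N and 0.0269 and 24 CPM in the hybrid. CG45080, CG33109, CG13947 and CG34212 followed the same order, and over all 8 genes the level was at most 0.322 CPM in hybrid replicate 1. The list of gut and salivary digestive enzymes summed to 40.2 and 30.8 CPM in SU26, 189 and 55.1 CPM in ZI418N and 21.9 and 92.3 CPM in the hybrid. It was higher in replicate 2 of the hybrid than in replicate 1, and highest in replicate 1 of ZI418N. The part these transcripts play in the tests below was not tested beyond leaving replicate 2 out.

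**Figure D1:**
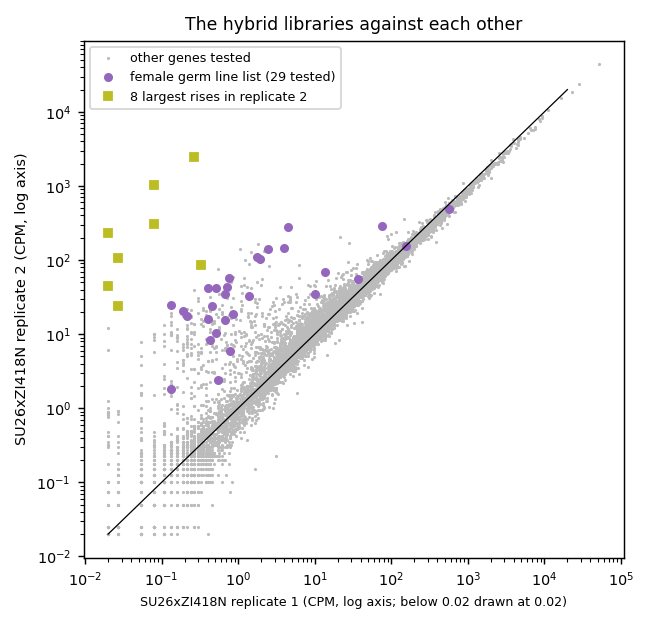
Level of each tested gene in hybrid replicate 2 (vertical axis, CPM, log scale) against hybrid replicate 1 (horizontal axis, CPM, log scale), with the line of equality. Most genes lie on the line, while 26 of the 29 germ line genes (circles) and the 8 genes with the largest ratio (squares) lie above it by at least 2-fold.

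The hybrid differed from SU26 at many more genes than from ZI418N. At an adjusted p under 0.05, 2115 genes differed from SU26 (22.7% of those tested), of which 1043 were higher in the hybrid (11.2%) and 1072 lower (11.5%). Against ZI418N 285 genes differed (3.06%), with 162 higher (1.74%) and 123 lower (1.32%). Both comparisons use the same hybrid libraries. The contrast was smaller by other measures. At an unadjusted edgeR p under 0.05 the counts were 3700 against SU26 and 2275 against ZI418N. DESeq2's own test called 2551 and 1040. Between the parents 2235 genes differed (24.0%), and 881 of them by at least 2-fold. Without hybrid replicate 2 the counts fell to 716 genes against SU26 (7.5%) and 158 against ZI418N (1.66%). Scaling to library totals without TMM factors moved the median log2 difference of all genes against SU26 from 0.03 to 0.20 and changed the split to 1918 higher and 659 lower. Leaving out SU26 replicate 2 left 503 calls against SU26, and leaving out ZI418N replicate 2 left 98 against ZI418N. Fitting only the 6 libraries left 487 and 68.

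Sorted by these calls, 1117 genes in the hybrid differed from SU26 but not from ZI418N while the parents differed, and 126 differed from ZI418N but not from SU26. A further 126 genes differed from both parents and lay between them. At 864 genes the parents differed and the hybrid was called different from neither, and 6186 genes gave no call at all. With hybrid replicate 2 left out, the genes like ZI418N numbered 608, those like SU26 97 and those between both 57. Genes like ZI418N outnumbered genes like SU26 under each of the 13 alternative settings run, most narrowly without SU26 replicate 2, at 370 against 152. A missed call against a parent does not show equality with it, so these classes describe calls and not identical levels.

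The position of the hybrid between its parents was measured on the 881 genes that differed at least 2-fold between SU26 and ZI418N, as 0 at the SU26 level and 1 at the ZI418N level. The same parental libraries chose the genes and set the ends of the scale, so the position is a description without a test. On the log2 scale the median position was 0.618 in hybrid replicate 1 and 0.610 in replicate 2, with quartiles over both of 0.394 and 0.831. Thus both hybrid libraries lay somewhat nearer to ZI418N than to SU26 at the median gene. In replicate 1, 128 genes lay below 0.25, 458 between 0.25 and 0.75 and 295 above 0.75. In replicate 2 these counts were 119, 472 and 290. Positions outside the parental range were fewer on the SU26 side: 29 and 44 genes lay below 0 and 92 and 140 above 1 in replicates 1 and 2.

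Genes higher and genes lower in ZI418N stood further apart in median position on the linear scale than on the log2 scale. At the same log2 position between the parents, the CPM position is lower for a gene higher in ZI418N. For a gene lower in ZI418N it is higher. The contrast in CPM therefore does not by itself show an effect of direction. For the 411 genes higher in ZI418N the median position in CPM was 0.483 in replicate 1 and 0.431 in replicate 2, near the midpoint of the parents. For the 470 genes lower in ZI418N it was 0.737 and 0.775, nearer to the lower level of ZI418N. There, 76.6% of the genes had a mean position above 0.5, against 48.9% of the genes higher in ZI418N. On the log2 scale the medians were closer, at 0.660 and 0.610 for genes higher in ZI418N and 0.546 and 0.610 for genes lower in it. By chromosome arm the median log2 position over both libraries ran from 0.576 on the X (119 genes) through 0.607 on 2L (173 genes) and 0.619 on 2R (191 genes) to 0.633 on 3R (232 genes) and 0.635 on 3L (160 genes). The small chromosome 4 gave 0.782 on 5 genes. Genes of the X were thus placed by a position close to that of the autosomes.

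**Figure D2:**
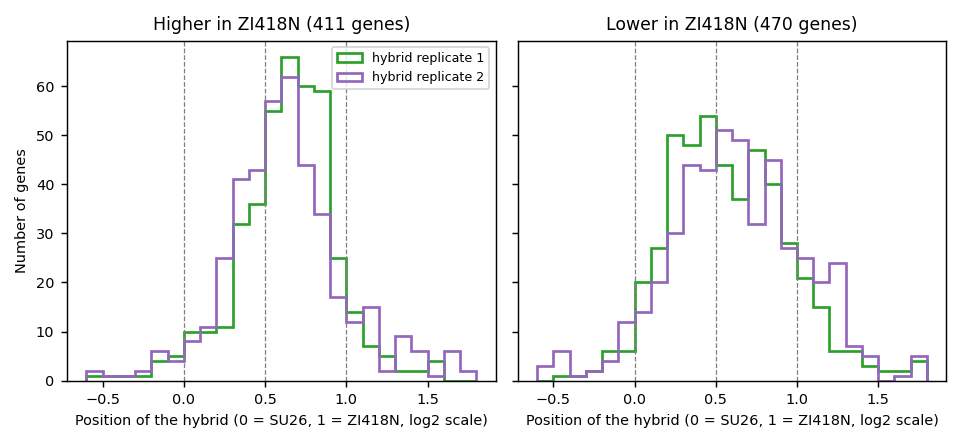
Number of genes (vertical axis) by the position of the hybrid on the log2 scale (horizontal axis, 0 at SU26 and 1 at ZI418N, dashed lines at 0, 0.5 and 1), for each hybrid library. Left, the 411 genes higher in ZI418N, with medians of 0.660 and 0.610; right, the 470 genes lower in ZI418N, with medians of 0.546 and 0.610. Values beyond the axis are drawn in the outermost bins.

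An additive level can be defined as the mean of the parents' log2 levels or as the mean of their CPM, and the latter is higher wherever the parents differ. Against the log2 mid-parent 465 genes differed (5.0%), 306 higher (3.29%) and 159 lower (1.71%). Against the CPM mid-parent 413 differed (4.44%), 199 higher (2.14%) and 214 lower (2.3%). The CPM split was also near even with DESeq2 size factors within edgeR, at 206 higher and 225 lower, and in DESeq2's own test, at 651 and 657. It was not even in other fits. With each parental library left out in turn, most of the CPM calls were lower. A fit of the 6 libraries gave 0 higher and 6 lower, the replicate number as a block 5 and 49, leaving out hybrid replicate 1 1390 and 373, and no filter on low counts 474 and 278. Of the 306 genes above the log2 mid-parent, 182 were at least 2-fold and 159 at least 4-fold higher in hybrid replicate 2 than 1. All 159 genes below it agreed between the libraries within 2-fold. Even so, most calls in either direction were lost when hybrid replicate 2 was left out. On hybrid replicate 1 alone, the counts were 25 (0.262%) for the log2 and 3 (0.0314%) for the CPM mid-parent. Without hybrid replicate 1 they were 1773 (18.4%) and 1763 (18.2%). Leaving out SU26 replicate 1 left 84 and 110 genes, SU26 replicate 2 left 30 and 44, ZI418N replicate 1 left 81 and 68, and ZI418N replicate 2 left 36 and 35. DESeq2 called 1280 and 1308 genes, and a fit of the 6 libraries alone 16 and 6. Scaling to library totals moved the share of calls above the log2 mid-parent from 65.8% to 82.9% and above the CPM mid-parent from 48.2% to 65.8%.

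Of the 306 genes above the log2 mid-parent, 199 were also above the CPM mid-parent, 2 were below it and 105 were not called against it. Of these 105, 96 had an estimate above the CPM mid-parent. The estimate of 14 of the 105 lay within 0.25 of it on the log2 scale. The 3 uncalled genes described next lay that close to it, so they do not stand for the 105. Mal-B2, a maltase gene, measured 47.8 and 46.2 CPM in SU26, 4.54 and 4.40 CPM in ZI418N and 27.6 and 24.7 CPM in the hybrid. Both hybrid libraries lay between the parents, with a log2 difference of 0.85 ± 0.09 (SE, adjusted p = 0.005) from the log2 mid-parent and 0.03 ± 0.09 (SE, adjusted p = 0.86) from the CPM mid-parent. Cyp6a16, a cytochrome P450 of the detoxification family, measured 51.5 and 45.1 CPM in SU26, 568 and 624 CPM in ZI418N and 331 and 288 CPM in the hybrid. Its difference was 0.87 ± 0.09 (SE, adjusted p = 0.0033) from the log2 and -0.06 ± 0.09 (SE, adjusted p = 0.7) from the CPM mid-parent. Piezo, a mechanically gated channel, measured 54.7 and 53.9 CPM in SU26, 3.24 and 3.32 CPM in ZI418N and 35.4 and 30.1 CPM in the hybrid, and differed from the log2 mid-parent by 1.29 ± 0.17 (SE, adjusted p = 0.015) and from the CPM mid-parent by 0.19 ± 0.18 (SE, adjusted p = 0.5). Mal-B2 and Piezo were chosen after their values were seen. In each of these 3 genes the hybrid libraries overlapped with neither parent.

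The few genes that departed from both mid-parents and kept their call against the log2 mid-parent without hybrid replicate 2 were 7. chinmo (FBgn0086758, 2L:1651258-1704682, plus strand in the BDGP6 annotation), a zinc finger transcription factor that controls temporal identity in neurons, measured 6.31 and 5.24 CPM in SU26, 41 and 53.6 CPM in ZI418N and 4.35 and 3.93 CPM in the hybrid. The hybrid libraries lay below all 4 parental libraries, close to SU26 and far from ZI418N. The difference was -2.0 ± 0.16 (SE, adjusted p = 0.0012) from the log2 mid-parent and -2.67 ± 0.17 (SE, adjusted p = 0.00064) from the CPM mid-parent. Against ZI418N it was -3.51 ± 0.19 (SE, adjusted p = 2.3e-05), and against SU26 -0.48 ± 0.18 (SE, adjusted p = 0.081), which did not pass. The call against the log2 mid-parent held under all 13 alternatives, and without hybrid replicate 2 the adjusted p was 0.015 and 0.023 for the log2 and CPM mid-parent. Fancl (3R:10051508-10052869, minus strand), a ubiquitin ligase of the Fanconi anemia DNA repair pathway, measured 12 and 13.3 CPM in SU26, 7.32 and 8.17 CPM in ZI418N and 4.76 and 6.55 CPM in the hybrid. Both hybrid libraries lay below the parents, by -0.81 ± 0.15 (SE, adjusted p = 0.044) from the log2 mid-parent, and its CPM mid-parent call was lost without hybrid replicate 2 (adjusted p = 0.087).

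Higher than both mid-parents were 5 genes. CG13313 (3L:8958857-8960921, plus strand) measured 42.8 and 33.2 CPM in SU26, 19.2 and 20.7 CPM in ZI418N and 77 and 48.9 CPM in the hybrid, with both hybrid libraries above all 4 parental libraries. It stood 1.19 ± 0.18 (SE, adjusted p = 0.024) above the log2 mid-parent, 0.73 ± 0.21 (SE, adjusted p = 0.039) above SU26 and 1.66 ± 0.22 (SE, adjusted p = 0.0046) above ZI418N. When hybrid replicate 2 was dropped, its separate tests gave adjusted p = 0.015 and 0.00082, so the higher level of this gene did not rest on that library. CG2247 (X:11606290-11611652, minus strand) measured 12.1 and 10.4 CPM in SU26, 25.9 and 23.1 CPM in ZI418N and 36.3 and 40.7 CPM in the hybrid, also above all parental libraries. Unlike CG13313, CG2247 was not called against the CPM mid-parent without hybrid replicate 2. It stood 1.77 ± 0.13 (SE, adjusted p = 0.00017) above SU26 and 0.65 ± 0.13 (SE, adjusted p = 0.03) above ZI418N, the latter lost without hybrid replicate 2 (adjusted p = 0.11).

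At the other 3 the gene was high in SU26, and the hybrid stood above, at or somewhat below that level. Snmp2 (3L:7733250-7743041, minus strand), of the CD36 family of sensory neuron membrane proteins, measured 116 and 104 CPM in SU26, 12.1 and 6.73 CPM in ZI418N and 141 and 136 CPM in the hybrid. The hybrid libraries were the highest of the 6, 3.88 ± 0.34 (SE, adjusted p = 0.0005) above ZI418N and 0.34 ± 0.30 (SE, adjusted p = 0.43) from SU26, which did not pass. CG7402 (3L:17887705-17891404, plus strand) measured 35.4 and 40.9 CPM in SU26, 3.63 and 2.74 CPM in ZI418N and 37.4 and 32 CPM in the hybrid, and the hybrid overlapped with SU26. It stood 3.44 ± 0.19 (SE, adjusted p = 2.7e-05) above ZI418N. CG16800 (2L:12966590-12967810, plus strand) measured 6.48 and 6.65 CPM in SU26, 0 and 0 CPM in ZI418N and 4.38 and 3.39 CPM in the hybrid. With no read in ZI418N, its level in the hybrid was at least 92.3-fold higher than the 0.0421 CPM that 3 reads over both ZI418N libraries allow. Leaving hybrid replicate 2 aside, none of the 3 passed against the CPM mid-parent, at adjusted p = 0.28, 0.21 and 0.21.

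GILT3, chosen after its values were seen, was the 1 other gene that differed from the CPM mid-parent without hybrid replicate 2. It measured 18.5 and 18.6 CPM in SU26, 1.08 and 1.38 CPM in ZI418N and 2.36 and 2.37 CPM in the hybrid, with the hybrid between the parents and near the lower ZI418N level. It stood -2.04 ± 0.17 (SE, adjusted p = 0.0034) from the CPM mid-parent, with an adjusted p of 0.031 without replicate 2.

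**Figure D3:**
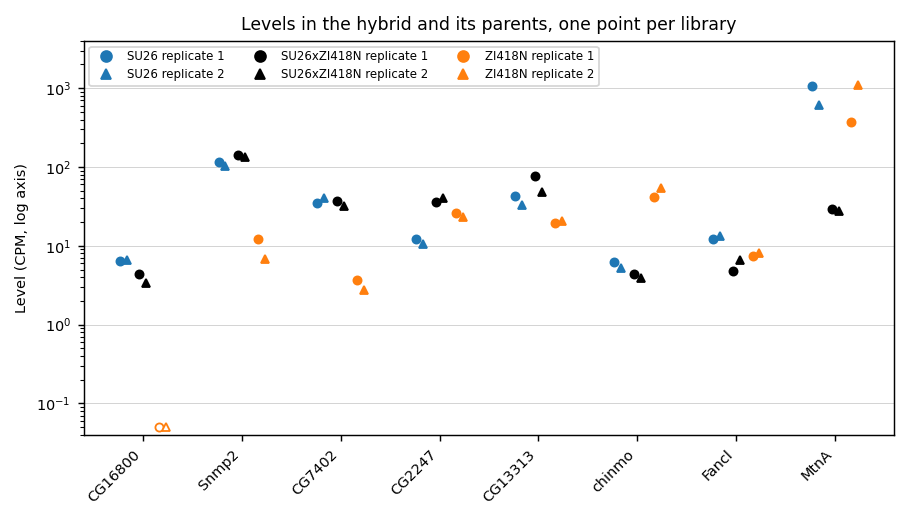
Level per library (CPM, log axis) of the 7 genes that departed from both mid-parents and of MtnA, with circles for replicate 1 and triangles for replicate 2. Open symbols at the lower edge stand for levels below 0.05 CPM. The hybrid libraries of chinmo, Fancl and MtnA lie below all 4 parental libraries, and those of Snmp2, CG2247 and CG13313 above them.

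No gene passed the test of lying outside both parents, which takes the larger p of the comparisons with each parent and adjusts it over all genes (0 called, 0.0%). The smallest adjusted p was 0.294, and 822 genes had an unadjusted p under 0.05. DESeq2 called 172 genes, 134 above and 38 below both. Without hybrid replicate 1 edgeR called 872 (9.03%), 847 of them above both (8.77%), and without hybrid replicate 2 none (0.0%). By level alone, both hybrid libraries lay above all 4 parental libraries at 865 genes (9.3%) and below them at 873 (9.39%). Hybrid replicate 2 alone lay above all 4 at 28.1% of genes and replicate 1 at 15.9%.

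By the separate calls against each parent, without joint adjustment, 16 genes lay below both parents and 6 above both. These genes were picked for their values and are described only. The most extreme was MtnA (3R:9783407-9784370, minus strand), a copper- and cadmium-binding metallothionein. It measured 1066 and 609.6 CPM in SU26, 370.2 and 1098 CPM in ZI418N and 29.3 and 27.3 CPM in the hybrid, so that the hybrid libraries matched each other and lay below the lowest parental library. The difference was -4.89 ± 0.62 (SE, adjusted p = 0.0024) from SU26 and -4.70 ± 0.62 (SE, adjusted p = 0.0047) from ZI418N, and without hybrid replicate 2 the adjusted p was 0.018 and 0.042. Its call against the log2 mid-parent (adjusted p = 0.011) was lost without that library (adjusted p = 0.093).

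The other genes below both parents included secreted and metabolic genes. Idgf1, an imaginal disc growth factor of the chitinase-like family, measured 63.6 and 36.5 CPM in SU26, 41.7 and 12.2 CPM in ZI418N and 4.73 and 2.91 CPM in the hybrid. AkhR, the receptor for adipokinetic hormone, which mobilises fat body stores, measured 1.12 and 0.346 CPM in SU26, 0.993 and 1.36 CPM in ZI418N and 0.161 and 0.149 CPM in the hybrid, and Dgat2, a diacylglycerol acyltransferase of fat synthesis, 3.77 and 5.65 CPM in SU26, 2.33 and 9.06 CPM in ZI418N and 0.887 and 0.971 CPM in the hybrid. In all 3 the hybrid libraries lay below every parental library and close to each other. robo2, a receptor for the guidance cue Slit, measured 5.45 and 4.81 CPM in SU26, 6.41 and 6.95 CPM in ZI418N and 3.52 and 2.91 CPM in the hybrid, and NimB2, of the Nimrod family, 1.82 and 1.15 CPM in SU26, 1.45 and 2.63 CPM in ZI418N and 0.403 and 0.448 CPM in the hybrid. Without hybrid replicate 2, Idgf1 kept its call against SU26 (adjusted p = 0.031) but not against ZI418N (adjusted p = 0.17), and AkhR, Dgat2 and NimB2 kept neither. The fat body list, which holds other genes of that tissue, summed to 392 and 179 CPM in SU26, 621 and 1133 CPM in ZI418N and 205 and 313 CPM in the hybrid. Both hybrid libraries stood below both ZI418N libraries on that list, and whether fat body RNA enters the lower levels of AkhR and Dgat2 was not tested.

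Above both parents were CG13313, CG2247, Lam, Rev1, jing and Phf7. Lam, a nuclear lamin, measured 20.8 and 22 CPM in SU26, 20.7 and 17.7 CPM in ZI418N and 28.5 and 41.5 CPM in the hybrid. Rev1, a DNA polymerase of translesion synthesis, measured 4.40 and 4.52 CPM in SU26, 4.60 and 3.21 CPM in ZI418N and 6.74 and 8.27 CPM in the hybrid, and jing, a zinc finger transcription factor, 8.96 and 9.62 CPM in SU26, 9.19 and 8.64 CPM in ZI418N and 13.1 and 17.1 CPM in the hybrid. In these the hybrid libraries lay above all parental libraries, with replicate 2 the higher. Phf7 measured 0.231 and 0.374 CPM in SU26, 0.0568 and 0.0277 CPM in ZI418N and 0.457 and 8.12 CPM in the hybrid and was high in hybrid replicate 2 alone. Without that library only CG13313 among the 6 passed against both parents.

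Genes in which the hybrid stood close to a parent, or midway, were taken from 384 genes that differed at least 2-fold between the parents and reached 10 CPM in the higher. In both hybrid libraries 26 of them lay below a position of 0.25, 7 of these higher and 19 lower in ZI418N. At positions above 0.75 there were 98, 21 higher and 77 lower in ZI418N. Between 0.4 and 0.6 there were 35, 18 higher and 17 lower. The 5 with the largest parental difference in each direction are described, and since the position chose them no test of it is given.

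Where SU26 was the low parent and the hybrid was like it, the genes were chinmo, Hsp68, CG2233, Alp8 and zfh2. Hsp68, an inducible heat shock protein, measured 0.958 and 5.50 CPM in SU26, 24.5 and 38.8 CPM in ZI418N and 2.71 and 1.82 CPM in the hybrid. zfh2, a zinc finger homeodomain factor on chromosome 4, measured 3.80 and 3.54 CPM in SU26, 10.4 and 11.7 CPM in ZI418N and 4.68 and 3.91 CPM in the hybrid, with part of its exons overlapped by a gene on the opposite strand. Alp8, an alkaline phosphatase, measured 1.39 and 3.08 CPM in SU26, 12.1 and 8.70 CPM in ZI418N and 2.42 and 1.79 CPM in the hybrid. In all 5 genes both hybrid libraries lay below both ZI418N libraries, and in Hsp68, CG2233 and Alp8 the SU26 libraries differed from each other by more than the hybrid libraries did.

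Where SU26 was the high parent and the hybrid was nearer to it on the log2 scale, the genes were Rh50, mthl9, Cyp12d1-d, CG12910 and Damm. Rh50, an ammonium transporter of the Rhesus family, measured 9.85 and 22.4 CPM in SU26, 0.227 and 0.0277 CPM in ZI418N and 9.86 and 10.0 CPM in the hybrid. mthl9, a methuselah-like receptor, measured 109 and 94.6 CPM in SU26, 0.880 and 1.14 CPM in ZI418N and 33.8 and 38.3 CPM in the hybrid, below SU26 and far above ZI418N. Cyp12d1-d, a mitochondrial cytochrome P450 linked to insecticide resistance, measured 342 and 276 CPM in SU26, 8.37 and 3.05 CPM in ZI418N and 166 and 135 CPM in the hybrid. It has a near-identical copy, Cyp12d1-p, so the split of reads between them is uncertain. Damm, a caspase, measured 60.8 and 38.1 CPM in SU26, 2.84 and 2.47 CPM in ZI418N and 28.4 and 24.5 CPM in the hybrid, and CG12910 48.8 and 44.9 CPM in SU26, 1.42 and 1.38 CPM in ZI418N and 33.6 and 29 CPM in the hybrid. In 4 of the 5, Rh50 being the exception, both hybrid libraries lay between the ZI418N and the SU26 libraries, below SU26 on the linear scale. In CPM mthl9 stood nearer to ZI418N, and Cyp12d1-d and Damm stood about midway between the parents.

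Genes placed near a low-expressing ZI418N included several with large parental contrasts. AttD, an attacin of the immune response, measured 21.4 and 0.807 CPM in SU26, 0.0851 and 0.0554 CPM in ZI418N and 0.0537 and 0 CPM in the hybrid, and Fst, the cold-responsive gene Frost, 1019 and 481 CPM in SU26, 42.4 and 3.41 CPM in ZI418N and 3.57 and 4.95 CPM in the hybrid. In both genes a parental line varied many-fold between its own libraries. Arc1, a capsid-forming protein related to the gene Arc of vertebrate neurons, measured 510.4 and 783 CPM in SU26, 17.6 and 8.97 CPM in ZI418N and 31.4 and 25.5 CPM in the hybrid. Elk, a voltage-gated potassium channel, measured 19.7 and 11.2 CPM in SU26, 0.482 and 0.471 CPM in ZI418N and 1.13 and 0.946 CPM in the hybrid, and GstD2, a glutathione S-transferase, 18.3 and 19.8 CPM in SU26, 1.16 and 1.19 CPM in ZI418N and 1.61 and 1.59 CPM in the hybrid. In Arc1, Elk and GstD2 the hybrid libraries lay far below SU26 and just above ZI418N. The differences from SU26 were -4.50 ± 0.53 (SE) for Arc1, -3.90 ± 0.32 (SE) for Elk and -3.57 ± 0.36 (SE) for GstD2. From ZI418N they were 1.10 ± 0.48 (SE), 1.12 ± 0.33 (SE) and 0.44 ± 0.35 (SE). The choice of these genes by position favoured a large difference from SU26 and a small one from ZI418N, so no p is given.

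Near a high-expressing ZI418N were FBgn0036125, CG31683, CG31997, Ace and CG12896. Ace, the acetylcholinesterase, measured 6.94 and 8.15 CPM in SU26, 101 and 63.2 CPM in ZI418N and 52.8 and 44.6 CPM in the hybrid. CG31997, on chromosome 4, measured 2.78 and 2.13 CPM in SU26, 79.5 and 58.2 CPM in ZI418N and 47.5 and 38 CPM in the hybrid, and CG31683 0.562 and 0.403 CPM in SU26, 23.3 and 17.1 CPM in ZI418N and 13 and 11.8 CPM in the hybrid. In all 3 the hybrid lay between the parents on the linear scale and nearer to ZI418N on the log2 scale. The gene FBgn0036125, which the annotation used here does not name, measured 0.330 and 0.230 CPM in SU26, 15.7 and 11.7 CPM in ZI418N and 11.3 and 8.69 CPM in the hybrid.

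Midway on the log2 scale were CG7295, CG9664, CG17224, Ptth and CG9121, higher in ZI418N, and CG14957, CG15784, Pka-C3, Cyp28d1 and CG12112, lower in it. Ptth, the prothoracicotropic hormone, measured 2.78 and 4.26 CPM in SU26, 14.2 and 18.8 CPM in ZI418N and 8.52 and 6.52 CPM in the hybrid. Pka-C3, a catalytic subunit of protein kinase A, measured 143 and 163 CPM in SU26, 26.1 and 23.6 CPM in ZI418N and 56.5 and 54.4 CPM in the hybrid, and Cyp28d1, a cytochrome P450, 188 and 191 CPM in SU26, 34.3 and 33.5 CPM in ZI418N and 76.7 and 68.8 CPM in the hybrid. CG15784, the most abundant of the 10, measured 2140.3 and 1786 CPM in SU26, 167 and 159 CPM in ZI418N and 691 and 709 CPM in the hybrid. In these 4 genes neither hybrid library overlapped with a parent.

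**Figure D4:**
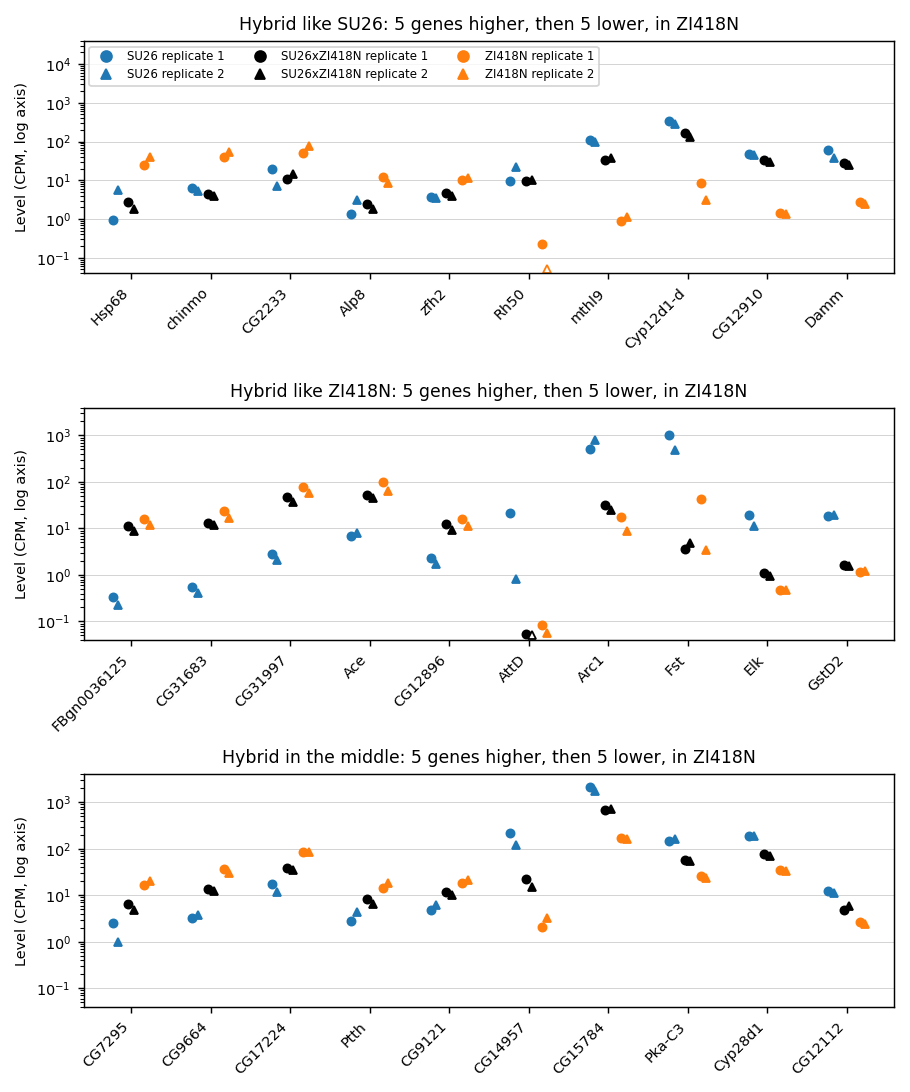
Level per library (CPM, log axis) of 5 genes higher and 5 lower in ZI418N for each class, with the hybrid in black between SU26 and ZI418N. The classes were set on the log2 scale. On this log axis the hybrid lies nearer to SU26 in the top panel, nearer to ZI418N in the middle panel and between them in the bottom panel. Open symbols at the lower edge stand for levels below 0.05 CPM.

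Gene groups of the tubule were described by how many members passed against each parent. Beside these counts stand 11.2% higher and 11.5% lower of all genes tested against SU26, and 1.74% and 1.32% against ZI418N, with a median log2 difference over all genes of 0.03 in both. Leaving out hybrid replicate 2, these shares were 3.64% and 3.87% against SU26 and 1.28% and 0.377% against ZI418N. Genes of oxidative phosphorylation, the subunits of the respiratory complexes and of ATP synthase, were lower than in SU26 at 52 of 72 tested members, with a median of -0.43, and at none higher. Against ZI418N none passed in either direction and the median was 0.07. The group summed to 26221 and 27253 CPM in SU26, 18010.5 and 19391 CPM in ZI418N and 20480.2 and 18661 CPM in the hybrid. Both hybrid libraries lay below SU26 and within or just above the range of ZI418N. ATPsynCF6, a coupling subunit of ATP synthase, measured 287 and 287 CPM in SU26, 165 and 187 CPM in ZI418N and 193 and 174 CPM in the hybrid, a difference of -0.65 ± 0.10 (SE, adjusted p = 0.004) from SU26. With hybrid replicate 2 left out, 11 of the members passed as lower than in SU26, and with library totals in place of TMM factors 33.

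Proteasome subunits, which form the main protease complex of the cell, fell in the same comparison. Against SU26 26 of 32 members were lower and none higher, with a median of -0.40, and against ZI418N none passed, with a median of 0.10. The group summed to 3470.2 and 3566 CPM in SU26, 2489 and 2613 CPM in ZI418N and 2586 and 2800.4 CPM in the hybrid. Rpn12, of the regulatory particle, measured 79.7 and 76.9 CPM in SU26, 47.4 and 50.7 CPM in ZI418N and 50.9 and 55.4 CPM in the hybrid, a difference of -0.56 ± 0.08 (SE, adjusted p = 0.0029) from SU26. Prosbeta1, of the catalytic core, measured 86 and 84.9 CPM in SU26, 50.1 and 52.7 CPM in ZI418N and 57.3 and 58.2 CPM in the hybrid. On hybrid replicate 1 alone, 17 members passed as lower, and with library totals 7. Of mitochondrial ribosomal proteins 13 of 72 were lower than in SU26 and none higher, with a median of -0.27, and without hybrid replicate 2 3 were. Of cytosolic ribosomal proteins 5 of 82 were lower and none higher with TMM factors, whereas with library totals none was lower and 2 were higher, and without hybrid replicate 2 none passed. Of 16 V-ATPase subunits, the proton pump of the principal cell, 1 was lower with TMM factors (Vha68-1) and 1 higher with library totals, and none passed without hybrid replicate 2. The V-ATPase list summed to 27310.0 and 32374 CPM in SU26, 28452 and 30306 CPM in ZI418N and 29734 and 25341 CPM in the hybrid.

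Of 22 organic solute and metal transporters 7 were lower than in SU26 and none higher, and none passed against ZI418N. The 7 became 3 when hybrid replicate 2 was left out. Indy, a carrier of citrate and other Krebs cycle intermediates, measured 238 and 242 CPM in SU26, 89.6 and 83.2 CPM in ZI418N and 64.7 and 69.9 CPM in the hybrid. The hybrid libraries lay below those of both parents, by -1.83 ± 0.16 (SE, adjusted p = 0.00038) from SU26 and by -0.36 ± 0.16 (SE, adjusted p = 0.2) from ZI418N, and the latter did not pass. Oatp33Eb, an organic anion transporter, measured 175 and 211 CPM in SU26, 141 and 131 CPM in ZI418N and 120.4 and 101 CPM in the hybrid, and Mdr49, an ABC exporter, 558 and 588 CPM in SU26, 334 and 367 CPM in ZI418N and 372 and 374 CPM in the hybrid. For ion channels, pumps and aquaporins, with 33 members tested, 3 passed as higher and 3 as lower than in SU26, and 2 as lower than in ZI418N, against 2, 0 and 1 without hybrid replicate 2. Irk2, an inward rectifier potassium channel of principal cells, measured 187 and 181 CPM in SU26, 367 and 345 CPM in ZI418N and 230.3 and 176 CPM in the hybrid, -0.81 ± 0.13 (SE, adjusted p = 0.011) from ZI418N.

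Of the 9 stellate cell markers 2 were higher than in SU26 and 2 lower than in ZI418N. The number higher than in SU26 was larger without hybrid replicate 2. ClC-a, the stellate chloride channel, measured 289.9 and 225 CPM in SU26, 554 and 499 CPM in ZI418N and 576 and 391 CPM in the hybrid, 0.91 ± 0.18 (SE, adjusted p = 0.012) from SU26. Prip, an aquaporin of stellate cells, measured 114 and 107 CPM in SU26, 217 and 207 CPM in ZI418N and 173 and 155 CPM in the hybrid, 0.58 ± 0.09 (SE, adjusted p = 0.004) from SU26. TyrR, the tyramine receptor that triggers the chloride response, measured 77.4 and 67.2 CPM in SU26, 103 and 147 CPM in ZI418N and 73.2 and 72.2 CPM in the hybrid, -0.78 ± 0.17 (SE, adjusted p = 0.043) from ZI418N, and Drip, another aquaporin, 239 and 249 CPM in SU26, 346 and 371 CPM in ZI418N and 274 and 221 CPM in the hybrid. Thus ClC-a and Prip lay near ZI418N or between the parents, and TyrR and Drip near SU26. When hybrid replicate 2 was dropped, neither TyrR nor Drip passed against ZI418N (adjusted p = 0.18 and 0.17). Of the 11 principal cell markers 1 was higher and 3 lower than in SU26, and 1 and 0 without that library. Uro, the urate oxidase found in these cells, measured 3949 and 4204 CPM in SU26, 2305 and 1792 CPM in ZI418N and 1725 and 1599 CPM in the hybrid, -1.29 ± 0.26 (SE, adjusted p = 0.013) from SU26, and Alp4, an alkaline phosphatase of the tubule, 3469 and 6045 CPM in SU26, 3278 and 4411 CPM in ZI418N and 2787 and 2408 CPM in the hybrid. Leaving hybrid replicate 2 aside, the lower level of Uro and Alp4 did not pass (adjusted p = 0.067 and 0.17).

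Detoxification genes passed in both directions. The cytochrome P450 family had 71 tested members, with 13 above and 20 below SU26, and 11 above and 2 below ZI418N. On hybrid replicate 1 alone, 8 were above and 11 below SU26, and 12 above and 2 below ZI418N. Among 8 linked to insecticide resistance 5 were lower than in SU26 and 3 higher than in ZI418N. Without hybrid replicate 2 these became 2 lower and 1 higher than in SU26 and 3 higher than in ZI418N. Cyp6g1, known for resistance to DDT, measured 6757 and 8618 CPM in SU26, 4989 and 5553 CPM in ZI418N and 5377 and 4440.1 CPM in the hybrid, -0.65 ± 0.15 (SE, adjusted p = 0.021) from SU26, a call lost without hybrid replicate 2 (adjusted p = 0.12). Cyp6w1 measured 9.45 and 11.8 CPM in SU26, 0.908 and 1.69 CPM in ZI418N and 0.752 and 0.747 CPM in the hybrid, with both hybrid libraries below all others. Cyp12a4 measured 1547 and 1257 CPM in SU26, 642 and 500.4 CPM in ZI418N and 1636 and 1268 CPM in the hybrid, where the hybrid overlapped with SU26 and stood 1.35 ± 0.17 (SE, adjusted p = 0.0043) above ZI418N. Of 29 glutathione S-transferases 1 was higher and 11 lower than in SU26, and 4 were higher than in ZI418N. The same counts without that library were 0, 6 and 3. GstO3 measured 145 and 189.9 CPM in SU26, 64.8 and 70.5 CPM in ZI418N and 58.7 and 58.6 CPM in the hybrid, and GstE1 167 and 248 CPM in SU26, 38.1 and 51 CPM in ZI418N and 46.9 and 35.6 CPM in the hybrid. In the hybrid GstO3 lay below both ZI418N libraries and GstE1 overlapped with them, and they stood -1.51 ± 0.14 (SE, adjusted p = 0.00051) and -2.33 ± 0.22 (SE, adjusted p = 0.00065) from SU26. Of 29 UDP-glycosyltransferases 2 were higher and 6 lower than in SU26 and 3 higher than in ZI418N, which became 1, 3 and 2 without it. Ugt302E1 measured 30.6 and 22.5 CPM in SU26, 1.96 and 2.49 CPM in ZI418N and 13.7 and 12.6 CPM in the hybrid, between the parents.

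Of 14 metallothioneins and antioxidant enzymes 9 were lower than in SU26 and none higher, with a median of -0.82. Against ZI418N 1 was lower, MtnA, and 1 higher, Sod3. MtnE, another metallothionein, measured 2.48 and 1.01 CPM in SU26, 0.199 and 0.138 CPM in ZI418N and 0.107 and 0.0996 CPM in the hybrid, and Sod3, an extracellular superoxide dismutase, 57.5 and 56.2 CPM in SU26, 28.5 and 27.9 CPM in ZI418N and 49.5 and 57.5 CPM in the hybrid. Sod3 stood 0.92 ± 0.10 (SE, adjusted p = 0.0013) above ZI418N and overlapped with SU26. Without hybrid replicate 2, 5 of the 14 were lower than in SU26.

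Heat shock genes stood low in the hybrid and spread widely between libraries of the same parent. The list had 19 tested members, 17 heat shock or co-chaperone genes and the stress-induced Turandot genes TotA and TotM. Of the 19, 10 were lower than in SU26 and 1 lower than in ZI418N, with medians of -1.67 and -1.65. At 12 of the 19 both hybrid libraries lay below all 4 parental libraries, beside 9.39% of all genes, and 6 of the 12 were Hsp70 copies. Of the 10 heat shock and co-chaperone genes other than the Hsp70 copies and Hsp22, 3 were lower than in SU26 and 1 lower than in ZI418N, with medians of -0.97 and -0.96, and 4 lay below all parental libraries. The group summed to 1928 and 4804 CPM in SU26, 2739.6 and 4849 CPM in ZI418N and 1504 and 1300.3 CPM in the hybrid. Hsp83, the Hsp90 chaperone, measured 1167 and 2588 CPM in SU26, 1443 and 2420.5 CPM in ZI418N and 921 and 718 CPM in the hybrid, and stv, a co-chaperone, 51.5 and 107 CPM in SU26, 46.2 and 65.1 CPM in ZI418N and 17.5 and 14.2 CPM in the hybrid. Hsp70Aa measured 42.7 and 416 CPM in SU26, 171 and 429 CPM in ZI418N and 18.6 and 7.67 CPM in the hybrid, but the Hsp70 genes are near-identical copies whose reads may be shared. The SU26 libraries differed several-fold from each other at Hsp70Aa. Hsp26, a small heat shock protein, measured 10.6 and 143 CPM in SU26, 52.5 and 92.9 CPM in ZI418N and 6.21 and 84.9 CPM in the hybrid, and Hsp27 3.47 and 35.1 CPM in SU26, 19.6 and 27.4 CPM in ZI418N and 1.75 and 50.4 CPM in the hybrid, and of the hybrid libraries only replicate 2 was high in both genes. With hybrid replicate 2 left out, 1 of the 19 passed as lower than in SU26 and none against ZI418N. Hsp22, counted among the 19, shares its annotated exons with another gene, so its reads are uncertain.

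Immune genes, namely antimicrobial peptides and the receptors for peptidoglycan, had 15 tested members, 2 higher and 8 lower than in SU26, and none passed against ZI418N. On hybrid replicate 1 alone, these counts were 1 and 2. Drs, the antifungal peptide drosomycin, measured 78.7 and 54.4 CPM in SU26, 218 and 296 CPM in ZI418N and 218 and 174 CPM in the hybrid, 1.56 ± 0.38 (SE, adjusted p = 0.023) above SU26, a call lost without hybrid replicate 2 (adjusted p = 0.053). AttC, an attacin, measured 0.991 and 1.73 CPM in SU26, 0.426 and 0.443 CPM in ZI418N and 0.0806 and 0.0996 CPM in the hybrid, -3.87 ± 0.60 (SE, adjusted p = 0.0044) from SU26. Beside these, 3 of 7 tested hemocyte markers were lower than in SU26 and 1 higher, and 1 and 0 without hybrid replicate 2. PPO2, a prophenoloxidase of crystal cells, measured 5.22 and 2.97 CPM in SU26, 0.766 and 1.38 CPM in ZI418N and 0.161 and 0.174 CPM in the hybrid, and Hml, hemolectin, 6.15 and 9.02 CPM in SU26, 2.84 and 7.62 CPM in ZI418N and 1.32 and 1.97 CPM in the hybrid. Both hybrid libraries lay below all 4 parental libraries at 5 of the 7 hemocyte genes, beside 9.39% of all genes, while the whole list summed to 149 and 149 CPM in SU26, 194 and 181 CPM in ZI418N and 158 and 159 CPM in the hybrid, and its part in the immune gene levels was not tested.

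**Figure D5:**
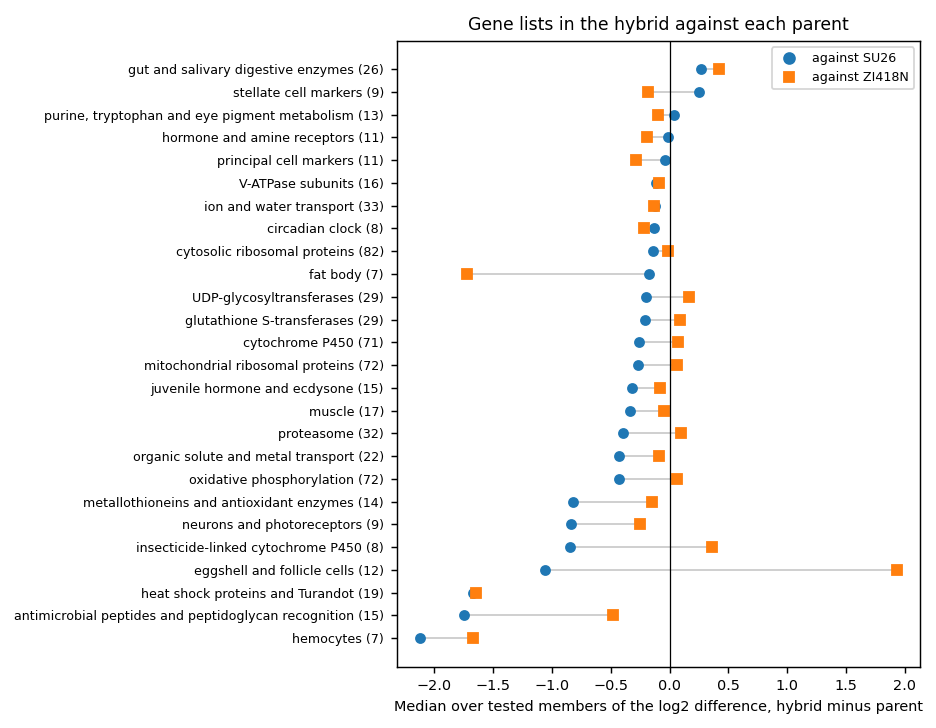
Median log2 difference over the tested members of each gene list, hybrid minus SU26 (circles) and hybrid minus ZI418N (squares), with the number of members tested in brackets and the female germ line list left out. Oxidative phosphorylation and proteasome genes lie at -0.43 and -0.40 against SU26 and at 0.07 and 0.10 against ZI418N.

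Of fiz, MtnA, Cyp6g1, CHKov1 and chinmo, which were named whatever their values, fiz and CHKov1 are described last. fiz, an oxidoreductase of the GMC family, measured 2894 and 3789 CPM in SU26, 2708 and 2491 CPM in ZI418N and 3541 and 3170.2 CPM in the hybrid. The hybrid overlapped with SU26 and lay above both ZI418N libraries, with a difference of 0.01 ± 0.13 (SE, adjusted p = 0.98) from SU26 and 0.37 ± 0.13 (SE, adjusted p = 0.13) from ZI418N, neither of which passed. CHKov1, linked to resistance to sigma virus, measured 38.7 and 39 CPM in SU26, 80.8 and 75.5 CPM in ZI418N and 55.9 and 45.2 CPM in the hybrid. It lay between the parents, 0.38 ± 0.11 (SE, adjusted p = 0.036) from SU26 and -0.63 ± 0.11 (SE, adjusted p = 0.016) from ZI418N, and the latter call was lost without hybrid replicate 2 (adjusted p = 0.066).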

How the data were processed

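Poly-A RNA from tubules was sequenced as paired reads of 125 bases, per the labels. The deposited tables hold raw read counts per gene from the authors; no source used here gives the aligner, counter or genome build. Gene IDs were named from the Ensembl BDGP6 annotation, which also gave the coordinates: 13749 of 13919 matched by ID, 146 by CG number and 24 had none. Counts were tested with edgeR 4.0.16 (R 4.3.3): TMM factors, filterByExpr, quasi-likelihood F-tests, 1 mean per genotype over all 12 libraries (6 residual degrees of freedom), Benjamini-Hochberg over 9302 genes, threshold 0.05. SE is the log2 difference divided by the root of F. For the CPM mid-parent the gap between both mid-parents entered as an offset, and its own error is not counted. The replicates are biological by the series design, with 2 per genotype, and no further source of each is labelled. The procedure was tested on simulated data. Ratios between hybrid libraries used a prior count of 2. DESeq2 1.42.0 was an alternative.

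Most genes were named by rule. The first took genes called against both mid-parents, with at least 5 CPM, whose log2 mid-parent call held without hybrid replicate 2. Others took 5 per parental direction in each position class and 8 per direction between the hybrid libraries. Gene lists gave up to 3 members each by lowest p against the log2 mid-parent, so these are not typical members. fiz, MtnA, Cyp6g1, CHKov1 and chinmo were always named. Genes called apart from both parents by separate tests, and Mal-B2, Piezo and GILT3, were added for their values. Of 28 lists, not every member is printed. The members, lists and rules were chosen with earlier results of these data known, including the germ line transcripts of hybrid replicate 2. No sequences are shown.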

Additional observations from a re-analysis of the deposited data

How the results depend on the processing

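Counts of calls depended on the libraries and the test. DESeq2 size factors within edgeR gave counts within 1.5 times of those reported. Without a filter on low counts 821 genes differed from the log2 mid-parent, 752 from the CPM mid-parent and 1 lay outside both parents. DESeq2's own test gave 1280, 1308 and 172 genes for these, and 1040 against ZI418N. The 6 libraries alone gave 16 and 6 genes against the log2 and CPM mid-parent, 487 against SU26, 68 against ZI418N and 1347 between the parents. Leaving out a replicate in turn gave 25 to 1773 genes against the log2 mid-parent, 3 to 1763 against the CPM mid-parent, 503 to 2842 against SU26, 98 to 1688 against ZI418N, 0 to 872 outside both parents and 1217 to 2565 between the parents. These fits leave a genotype with 1 library, whose spread is assumed to be that of the others. Without both hybrid replicate 2 and SU58 replicate 1, an alternative chosen after seeing the data, the counts were 14 and 2 for the mid-parents, 341 against SU26 and 86 against ZI418N. With the replicate number as a block the mid-parent counts were 68 and 54, and 1875 against SU26, 257 against ZI418N. Deviations of same-numbered libraries correlated at 0.04, -0.07 and -0.01 among the 3 genotypes. Over all 15 pairs of genotypes they correlated at -0.22 to 0.32, 4 of them over 0.1. No label ties the numbers, and these correlations cannot tell whether same-numbered libraries share more than a number. The median position of 0.610 became 0.628 with library totals, 0.620 without the filter, 0.618 on CPM, 0.588 for genes at least 4-fold apart, 0.619 without hybrid replicate 2 and SU58 replicate 1, and 0.574 to 0.646 when a replicate was left out. It stayed above 0.5 in each of these. Of 2493 re-tests of calls on single named genes 1788 kept the call, 705 lost it and none reversed. The causes were not tested. With 2 libraries per genotype and 1 hybrid library holding far more germ line transcripts than the other, small differences from a mid-parent were not resolved at this replication.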

Other observations

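Hormone, clock and pigment genes of the tubule are given beside the 22.7% of all genes that differed from SU26 and the 3.06% that differed from ZI418N. Of 11 hormone and amine receptors 1 was higher and 1 lower than in SU26, and 2 were lower than in ZI418N. Without hybrid replicate 2 these counts were 2, 0 and 0. InR, the insulin receptor, measured 45.1 and 38.3 CPM in SU26, 59.7 and 55.8 CPM in ZI418N and 43.4 and 39 CPM in the hybrid, -0.48 ± 0.11 (SE, adjusted p = 0.057) from ZI418N, which did not pass. Of 8 circadian clock genes 1 was higher than in SU26, the blue light receptor cry at 442 and 422 CPM in SU26, 669 and 679.6 CPM in ZI418N and 647 and 539 CPM in the hybrid. Of 15 juvenile hormone and ecdysone genes 2 were higher and 3 lower than in SU26, and 1 was higher than in ZI418N, against 0, 2 and 1 without that library. Jhe, the juvenile hormone esterase, measured 21.5 and 26.8 CPM in SU26, 0.199 and 0.138 CPM in ZI418N and 6.96 and 5.55 CPM in the hybrid, so the hybrid lay between the parents. Of 13 purine, tryptophan and eye pigment genes 1 was higher and 3 lower than in SU26, and none passed without it. w, the white gene of pigment precursor transport, measured 589 and 670.3 CPM in SU26, 329.8 and 341 CPM in ZI418N and 410.4 and 349.9 CPM in the hybrid, -0.73 ± 0.13 (SE, adjusted p = 0.0083) from SU26 (adjusted p = 0.052 without hybrid replicate 2).

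Lists of muscle, neuron and male reproductive genes were summed in the same way. The muscle list summed to 472 and 488 CPM in SU26, 427 and 460.0 CPM in ZI418N and 421 and 363 CPM in the hybrid, and none of its 17 tested genes passed against either parent, while without hybrid replicate 2 1 was lower than in SU26. Neuron and photoreceptor genes summed to 29.5 and 28.8 CPM in SU26, 25.5 and 22.8 CPM in ZI418N and 25.1 and 20.9 CPM in the hybrid, with 3 of 9 tested lower than in SU26 and 1 higher than in ZI418N, and 0 and 1 without that library. The testis and male accessory gland list summed to at most 0.215 CPM in the 6 libraries, and none of its 16 genes had enough reads to be tested.

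Among genes higher in hybrid replicate 1, the 8 with the largest ratio to replicate 2 were Zip89B, Cyp4g1, Hsp70Ab, Hsp70Aa, tadr, CG33511, ZnT77C and ImpL2. Zip89B, of the zinc transporter family, measured 14.3 and 16.7 CPM in SU26, 19.9 and 11.1 CPM in ZI418N and 41 and 14.6 CPM in the hybrid, and ZnT77C, of another zinc transporter family, 107 and 109 CPM in SU26, 93.5 and 90.0 CPM in ZI418N and 72 and 35 CPM in the hybrid. CG33511 measured 241 and 97.7 CPM in SU26, 280.2 and 167 CPM in ZI418N and 385 and 177 CPM in the hybrid. Cyp4g1, an oenocyte enzyme of cuticular hydrocarbon synthesis, measured 36.6 and 9.91 CPM in SU26, 74.2 and 18.6 CPM in ZI418N and 14.6 and 5.25 CPM in the hybrid.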
